A study of Mus musculus with 9 samples.

Results

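Genes of cholesterol and fatty acid synthesis, their sterol sensors and the liver X receptor efflux arm were examined in mouse activated hepatic stellate cells (aHSCs), the cells that make scar matrix in injured liver. The members were 35 genes listed by symbol, and every array probe with one of these symbols was taken. Of the 35, 32 had a probe, out of 30869 gene symbols on the array, and these 32 had 50 probes. Hmgcs1, Fdft1 and Acaca had none. A further 2, Fasn (fatty acid synthase) and Abca1 (a cholesterol exporter), were each above background on 1 of 9 arrays, a WT1-high array, and were not tested. The results below concern the other 30 genes, each given by its brightest tested probe unless stated.

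All 9 samples came from WT1GFP/+ mice on a C57/Bl6 background, in which a green fluorescent protein (GFP) reporter sits in 1 copy of the Wt1 gene, so every group carried the same allele. The labels give the mice as male, and the study's methods describe adult animals. WT1-high (GFP high, replicates 1, 8 and 29) and WT1-intermediate (GFP low, replicates 1, 8 and 30) cells were sorted from livers chronically injured with carbon tetrachloride, a hepatotoxin. WT1-negative (GFP negative, replicates 3, 11 and 14) cells were sorted after 7 days of activation in culture, without that injury. GFP status therefore coincides with origin in every comparison with WT1-negative cells, and WT1 status, culture and injury cannot be told apart there. The arrays of liver and of culture were also exported as separate tables. Each group had 3 arrays, with 17253 to 19774 probes above background per array and a mean deposited intensity of 147.5 to 288.9. Of 15 stellate cell markers 12 were tested, while Lrat, Gfap and Rgs5 did not pass the detection filter. Against WT1-negative cells, 4 of the 12 were called higher and 4 lower in WT1-high cells. For WT1-intermediate cells these counts were 4 and 3. On WT1-negative arrays the 12 had a mean log2 level of 8.09 to 8.48, and 15 macrophage markers had 10.10 to 10.24. WT1-intermediate arrays gave 8.60 to 9.02 and 9.24 to 9.88, and WT1-high arrays 8.67 to 9.10 and 7.61 to 8.03. The share of each cell type was not tested. All 9 mesothelial markers tested were called higher in both WT1-positive groups than in WT1-negative cells.

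As background, cells build cholesterol from acetyl-CoA through the mevalonate pathway, squalene and a series of sterol intermediates. The transcription factor SREBP-2, encoded by Srebf2, raises most of these enzymes when membrane sterol is low, with Scap as its escort and the Insig proteins as its anchors. SREBP-1, encoded by Srebf1, acts more on fatty acid synthesis, and the liver X receptor (Nr1h3) senses oxysterols and raises cholesterol exporters. Quiescent stellate cells are known for their lipid droplets, which they lose on activation.

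Most enzymes of cholesterol synthesis had lower levels in both WT1-positive groups than in WT1-negative cells. Of the 16 mevalonate and sterol genes tested, 10 were called lower and 1 higher in WT1-high cells, with a median log2 difference of -0.62. In WT1-intermediate cells 13 were called lower and 1 higher, with a median of -1.06. Over all 30 members, 13 were called lower and 6 higher in WT1-high cells, and 15 lower and 6 higher in WT1-intermediate cells. A call means a Benjamini-Hochberg adjusted p below 0.05 over all 20573 probes tested. Among all 14659 genes tested, 32.1% were called lower and 27.6% higher in WT1-high cells, and 32% lower and 25.9% higher in WT1-intermediate cells. The median log2 difference of the 30 members was -0.35 in WT1-high cells and -0.54 in WT1-intermediate cells, against -0.07 and -0.10 over all genes tested. The arrays of the compared groups did not overlap for 22 and 24 of the 30 members, against 68.7% and 65.7% of all genes. Both comparisons share the WT1-negative arrays, so their calls are not independent of each other. In bulk samples fewer cells of a type and less RNA per cell cannot be told apart.

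**Figure D1:**
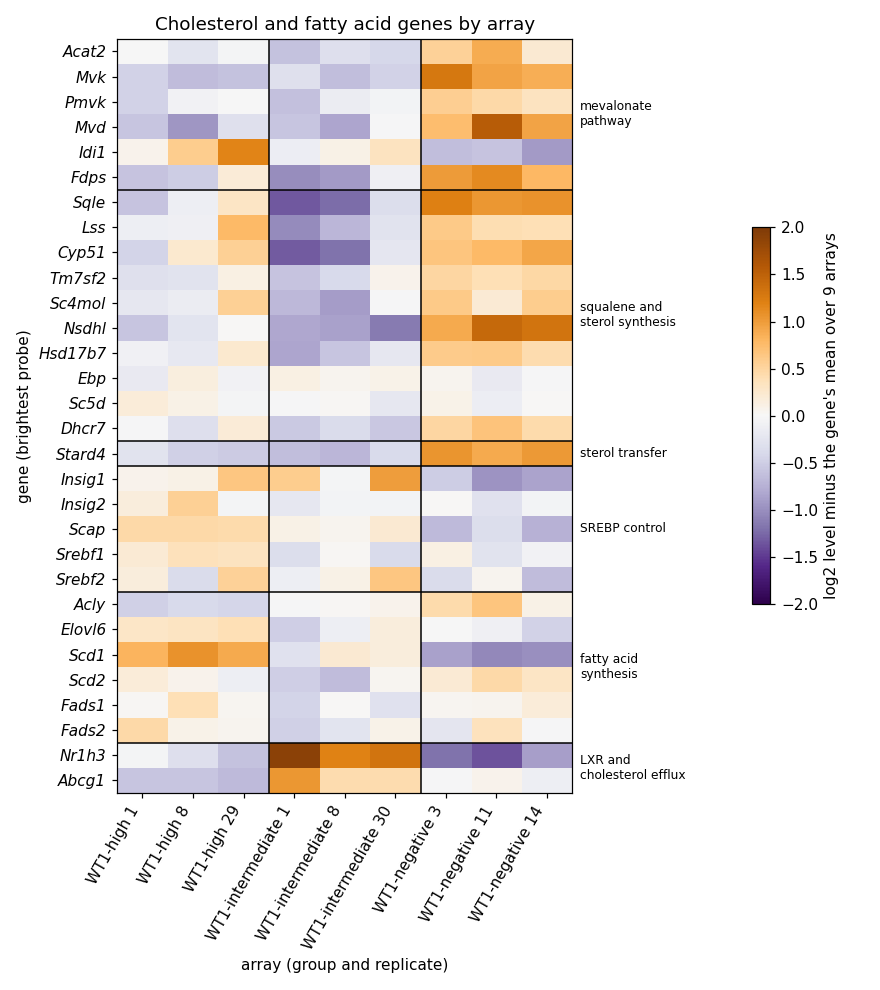
Log2 level of the 30 tested genes (rows, brightest probe, grouped by role) in each of the 9 arrays (columns), shown as the difference from the gene's mean over the 9 arrays, with orange above and purple below that mean. Most mevalonate and sterol rows are orange in the 3 WT1-negative arrays, while Idi1, Scd1 and Nr1h3 are purple there.

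The mevalonate pathway was split between 5 falls and 1 rise, the same 6 genes and directions in both comparisons. Mvk, mevalonate kinase, had log2 levels of 4.71, 4.52 and 4.58 in WT1-high replicates 1, 8 and 29, of 4.87, 4.55 and 4.71 in WT1-intermediate replicates 1, 8 and 30, and of 6.47, 6.12 and 6.05 in WT1-negative replicates 3, 11 and 14. No WT1-positive array reached the WT1-negative range. Its difference from WT1-negative was -1.61 (SE 0.16, 3.05-fold, adjusted p = 7.4e-06) in WT1-high and -1.50 (SE 0.16, adjusted p = 1.5e-05) in WT1-intermediate cells. The Mvk probe was above background on only 2 of 3 arrays in each WT1-positive group, so its low level there lies near the background.

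Mvd, which decarboxylates mevalonate diphosphate, had levels of 5.94, 5.57 and 6.21 in WT1-high, 5.94, 5.68 and 6.48 in WT1-intermediate and 7.26, 8.06 and 7.46 in WT1-negative cells, in the same replicate order. Its differences from WT1-negative were -1.69 (SE 0.26, 3.23-fold, adjusted p = 0.00021) and -1.56 (SE 0.26, adjusted p = 0.00041). The spread among WT1-negative arrays, with replicate 11 the highest, was smaller than this gap.

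Fdps, farnesyl diphosphate synthase, was the brightest of these enzymes' probes to fall. Its levels were 9.37, 9.44 and 10.15 in WT1-high, 8.95, 9.04 and 9.86 in WT1-intermediate and 10.96, 11.08 and 10.74 in WT1-negative cells. Replicates 29 and 30, the highest of their groups, still lay below all WT1-negative arrays. The log2 differences from WT1-negative were -1.28 (SE 0.27, adjusted p = 0.0017) and -1.65 (SE 0.27, adjusted p = 0.00031). Acat2, the cytosolic thiolase, gave -0.65 (SE 0.18, adjusted p = 0.0086) in WT1-high cells and fell by 1.00 (SE 0.18, adjusted p = 0.00066) in the other group, and Pmvk, phosphomevalonate kinase, gave -0.63 (SE 0.19, adjusted p = 0.013) and -0.73 (SE 0.19, adjusted p = 0.0063). The Pmvk call in WT1-high cells was lost without WT1-high replicate 1 (adjusted p = 0.059) or without WT1-negative replicate 3 (adjusted p = 0.051).

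Idi1, which interconverts the C5 isoprenoid building blocks, was the member of this pathway that rose. Its levels were 5.37, 5.89 and 6.48 in WT1-high, 5.17, 5.40 and 5.64 in WT1-intermediate and 4.66, 4.71 and 4.38 in WT1-negative cells, with no overlap between WT1-positive and WT1-negative arrays. The rise was 1.33 (SE 0.25, 2.51-fold, adjusted p = 0.0008) in WT1-high cells and 0.82 (SE 0.25, adjusted p = 0.015) in WT1-intermediate cells. The second of these calls was lost without background correction (0.22, adjusted p = 0.097), with an offset of 50 (0.40, adjusted p = 0.062), with no filter (0.82, adjusted p = 0.055), without WT1-intermediate replicate 30 (0.73, adjusted p = 0.05) and without WT1-negative replicate 14 (0.71, adjusted p = 0.058).

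The promoters of Mvk, Mvd and Nsdhl, which fell in both comparisons, of Cyp51, called lower only in WT1-intermediate cells, and of Idi1, which rose, are shown to compare what lies upstream of these genes. RefSeq windows were matched for 27 of the 35 listed genes. Windows for Fdps, Fdft1, Sqle, Stard4, Scd1, Scd2, Fads1 and Abcg1 were not matched. The 250 bases before the annotated start are given 5′ to 3′ on the gene's strand (build GRCm38.p6), with CCAAT boxes, read on both strands as CCAAT or ATTGG, in capitals.
Mvk, chr5:114444019-114444268, plus strand: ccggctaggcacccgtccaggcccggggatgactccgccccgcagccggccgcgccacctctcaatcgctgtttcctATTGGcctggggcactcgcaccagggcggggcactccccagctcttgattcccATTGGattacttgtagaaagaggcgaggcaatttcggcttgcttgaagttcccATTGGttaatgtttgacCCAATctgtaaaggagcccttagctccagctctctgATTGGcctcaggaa
Mvd, chr8:122443423-122443672, minus strand: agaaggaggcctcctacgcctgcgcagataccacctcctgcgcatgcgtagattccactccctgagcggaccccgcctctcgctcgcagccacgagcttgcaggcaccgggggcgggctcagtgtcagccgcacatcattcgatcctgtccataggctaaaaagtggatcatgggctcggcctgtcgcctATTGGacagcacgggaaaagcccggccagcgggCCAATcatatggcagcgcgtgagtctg
Nsdhl, chrX:72918271-72918520, plus strand: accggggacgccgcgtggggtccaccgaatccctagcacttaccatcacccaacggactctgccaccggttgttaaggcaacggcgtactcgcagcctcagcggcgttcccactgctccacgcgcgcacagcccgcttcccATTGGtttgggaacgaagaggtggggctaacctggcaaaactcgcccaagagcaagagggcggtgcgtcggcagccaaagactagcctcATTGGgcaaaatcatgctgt
Cyp51, chr5:4104698-4104947, minus strand: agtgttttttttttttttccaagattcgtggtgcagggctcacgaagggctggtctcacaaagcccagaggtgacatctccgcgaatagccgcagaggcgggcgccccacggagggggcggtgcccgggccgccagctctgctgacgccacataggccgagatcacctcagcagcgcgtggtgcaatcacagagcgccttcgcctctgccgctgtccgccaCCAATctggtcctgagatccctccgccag
Idi1, chr13:8885356-8885605, plus strand: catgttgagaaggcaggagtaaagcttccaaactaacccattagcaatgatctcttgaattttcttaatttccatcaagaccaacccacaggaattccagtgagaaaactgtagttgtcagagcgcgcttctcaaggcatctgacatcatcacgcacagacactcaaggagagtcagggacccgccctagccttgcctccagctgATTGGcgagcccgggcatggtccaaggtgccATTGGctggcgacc
Mvk held 5 CCAAT boxes in this stretch, Mvd, Nsdhl and Idi1 held 2 each, and Cyp51 held 1. At least 1 box was present upstream of 14 of the 15 mevalonate and sterol genes with a window (93.3%), Acat2 being the one without, and upstream of 10133 of the 27025 genes in the table (37.5%). It was present in 5 of the other 12 members with a window (41.7%). The box is a known site of the factor NF-Y. The GC box, searched as GGGCGG on both strands, was in the stretch of 14 of the same 15 genes (93.3%), Pmvk being the one without, and of 35.4% of all genes in the table. A sterol regulatory element searched as TCACNCCAC on both strands matched 1 of the 15, Hmgcs1, which has no probe here, and 1.22% of all genes. Only this pattern was searched, so elements with other letters were not counted and the other genes may still hold one. The E-box CACGTG matched 3 of the 15 (20%), against 6.86% of all genes. Among the other 12 members with a window, 8 held the GC box (66.7%) and 3 the E-box (25%). The E-box share was thus not higher in the sterol genes than in the other members. A gene with several windows counted if any of them matched, for members and all genes alike, and Dhcr7 held boxes in 1 of 3 windows and Pmvk in 1 of 2. These matches describe letters in a fixed window, and their link to the expression differences was not tested. Ebp and Sc5d, which were not called, held CCAAT boxes, while Acat2, called lower in both comparisons, and Acly, called lower in WT1-high cells, held none.

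Downstream of mevalonate, 5 of 10 squalene and sterol genes were called lower in WT1-high cells and 8 of 10 in WT1-intermediate cells, and none was called higher. Over all genes tested, 32.1% and 32% were called lower in these comparisons, and 27.6% and 25.9% higher. Nsdhl, a sterol dehydrogenase that removes C4 groups, had levels of 5.40, 5.70 and 5.97 in WT1-high, 5.14, 5.10 and 4.83 in WT1-intermediate and 6.87, 7.39 and 7.28 in WT1-negative cells. The 3 groups did not overlap. It fell by 1.49 (SE 0.19, 2.81-fold, adjusted p = 5.6e-05) in WT1-high cells. For WT1-intermediate cells the difference was -2.16 (SE 0.19, 4.46-fold, adjusted p = 4.1e-06), the largest fall there among the brightest probes of members. Its 4 tested probes were all called lower in both comparisons, although ILMN_2594521 and ILMN_2594525 share 44 of 50 bases and are close to the same measurement.

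Sqle, squalene epoxidase, a rate-limiting step of the sterol branch, had levels of 8.07, 8.54 and 8.96 in WT1-high, 7.32, 7.43 and 8.33 in WT1-intermediate and 9.88, 9.70 and 9.73 in WT1-negative cells. All WT1-positive arrays lay below all WT1-negative arrays. The differences were -1.25 (SE 0.28, 2.37-fold, adjusted p = 0.0024) and -2.07 (SE 0.28, 4.20-fold, adjusted p = 7.7e-05). A second Sqle probe gave -2.09 (adjusted p = 2.5e-05) and -2.43 (adjusted p = 9.6e-06).

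Cyp51, which demethylates lanosterol, had levels of 7.16, 7.84 and 8.16 in WT1-high, 6.28, 6.40 and 7.37 in WT1-intermediate and 8.27, 8.38 and 8.53 in WT1-negative cells. In WT1-intermediate cells it fell by 1.71 (SE 0.30, 3.27-fold, adjusted p = 0.00058). In WT1-high cells the difference of -0.67 (SE 0.30) had an adjusted p of 0.075 and was not called. That value passed the threshold under 5 alternatives, among them without WT1-high replicate 29 (-0.89, adjusted p = 0.032) and with array weights (-0.86, adjusted p = 0.0081).

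Among the remaining sterol genes, Hsd17b7 (a 3-keto sterol reductase), Dhcr7 (which makes cholesterol in the last step) and Tm7sf2 (a sterol C14 reductase) were called lower in each of the WT1-positive groups, with differences from -0.57 to -0.61 in the WT1-high group and from -0.76 to -1.09 in the WT1-intermediate group. The Hsd17b7 call in WT1-high cells was lost when any 1 of WT1-high replicates 1 and 8 or WT1-negative replicates 3 and 11 was left out (adjusted p = 0.059 to 0.073), and the Tm7sf2 call without WT1-high replicate 1, WT1-high replicate 8 or WT1-negative replicate 14 (adjusted p = 0.05 to 0.058). The fall of Tm7sf2 in WT1-intermediate cells, where its probe was above background on 1 of 3 arrays, was not called under median scaling (-0.45, adjusted p = 0.14). Lss, lanosterol synthase, differed by -0.29 in WT1-high (SE 0.26, adjusted p = 0.34) and fell by 1.15 in WT1-intermediate cells (SE 0.26, adjusted p = 0.0026). Sc4mol, a sterol C4 methyl oxidase, showed the same split, with -0.40 (SE 0.26, adjusted p = 0.20) and -1.01 (SE 0.26, adjusted p = 0.0062). Without WT1-high replicate 29, the differences of WT1-high cells were called for Lss (-0.59, adjusted p = 0.038) and Sc4mol (-0.64, adjusted p = 0.047). Ebp and Sc5d, which act between lanosterol and the final product, differed by -0.06 to 0.13 and were not called in either group. Stard4, a cytosolic sterol carrier, had levels of 6.82, 6.61 and 6.56 in WT1-high, 6.46, 6.40 and 6.70 in WT1-intermediate and 8.15, 7.99 and 8.12 in WT1-negative cells. It changed by -1.42 (SE 0.15, 2.68-fold, adjusted p = 9.8e-06) and -1.56 (SE 0.15, 2.96-fold, adjusted p = 6e-06).

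**Figure D2:**
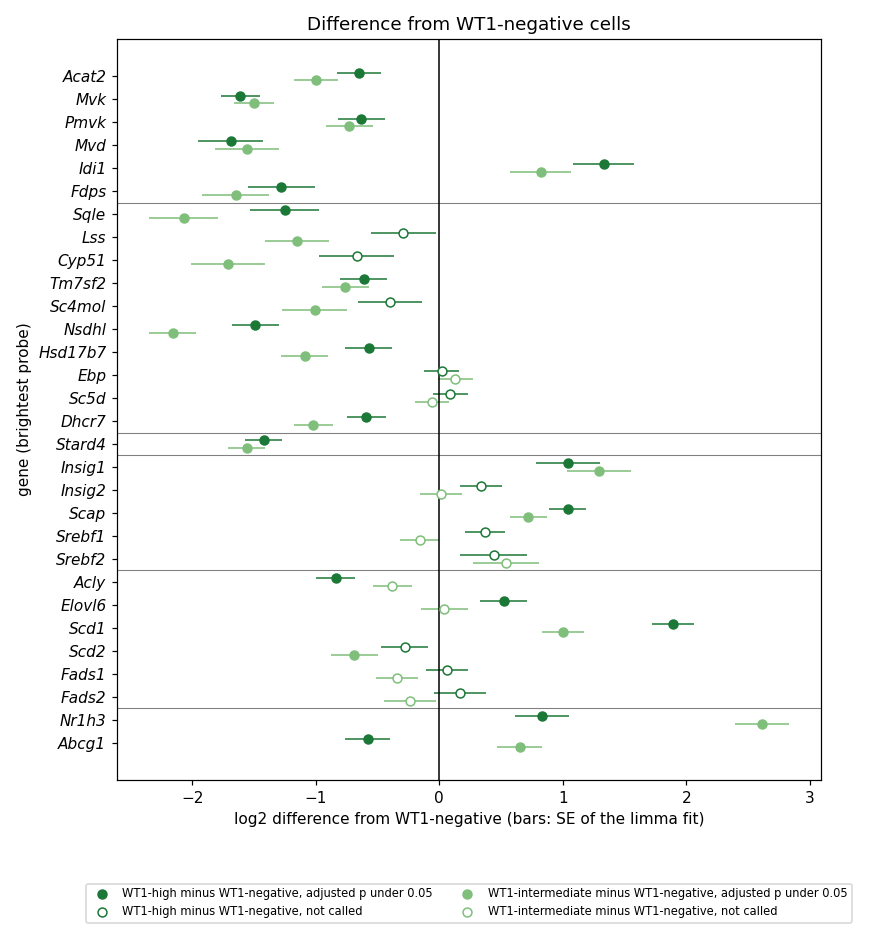
Log2 difference from WT1-negative cells (x axis) for each tested gene (rows, brightest probe), with WT1-high in dark green and WT1-intermediate in light green, bars giving the SE of the limma fit and filled points an adjusted p under 0.05. Most mevalonate and sterol points lie left of 0 and, from Sqle to Nsdhl, WT1-intermediate lies further left, while Idi1, Insig1, Scap, Scd1 and Nr1h3 lie right of 0 in both.

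Proliferation markers moved with these genes. All 7 cell cycle genes tested were called lower in both WT1-positive groups, with medians of -3.06 and -3.56, and their mean log2 level per array was 4.91 to 5.79 in WT1-high, 4.74 to 5.12 in WT1-intermediate and 8.40 to 8.71 in WT1-negative cells. Of 15 macrophage markers tested, 11 were called lower and 1 higher in WT1-high cells, with a median of -2.41, and 6 lower and 3 higher in WT1-intermediate cells, with a median of -0.73. The part of proliferation and of macrophages in the sterol gene differences was not tested.

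By their brightest probes, 2 of the 5 genes of SREBP control, Scap and Insig1, were called higher in both WT1-positive groups than in WT1-negative cells. None was called lower. Over all genes, 27.6% were called higher and 32.1% lower in WT1-high cells, and 25.9% and 32% in WT1-intermediate cells. With 5 genes, these counts do not set the regulators apart from all genes, and other Insig1 probes fell, as given below. Scap had levels of 7.20, 7.20 and 7.18 in WT1-high, 6.85, 6.80 and 6.97 in WT1-intermediate and 6.07, 6.40 and 6.00 in WT1-negative cells. The groups did not overlap, and the rises were 1.04 (SE 0.15, 2.05-fold, adjusted p = 0.00012) and 0.72 (SE 0.15, adjusted p = 0.0017). Srebf2 differed by 0.44 (SE 0.27, adjusted p = 0.18) and 0.54 (SE 0.27, adjusted p = 0.11), with a second probe called higher at 0.58 (adjusted p = 0.042) and 0.79 (adjusted p = 0.01). Srebf1 differed by 0.37 (SE 0.16, adjusted p = 0.067) and -0.16 (SE 0.16, adjusted p = 0.40), and Insig2 by 0.34 (adjusted p = 0.11) and 0.01 (adjusted p = 0.98), and neither was called. In WT1-high cells Srebf1 was called under cyclic loess (0.61, adjusted p = 0.0055) and array weights (0.34, adjusted p = 0.044). Insig2 was called there without WT1-high replicate 29 (0.47, adjusted p = 0.046). Array weights also called the brightest Srebf2 probe in both groups (0.57, adjusted p = 0.037, and 0.73, adjusted p = 0.024).

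Insig1, an endoplasmic reticulum anchor of the SREBP escort and itself a target of SREBP, gave opposite answers by probe. The brightest probe, ILMN_2895388, read 7.33, 7.36 and 7.91 in WT1-high, 7.85, 7.22 and 8.25 in WT1-intermediate and 6.75, 6.30 and 6.42 in WT1-negative cells. By this probe Insig1 rose by 1.04 (SE 0.26, adjusted p = 0.0049) and by 1.29 (SE 0.26, adjusted p = 0.0014). Probe ILMN_1245272 read 4.61, 4.99 and 5.00 in WT1-high, 4.91, 4.34 and 5.21 in WT1-intermediate and 6.85, 7.61 and 7.39 in WT1-negative cells. That probe gave -2.42 (SE 0.25, 5.36-fold, adjusted p = 9.5e-06) and -2.47 (SE 0.25, 5.52-fold, adjusted p = 1e-05), and ILMN_2606693 gave -2.17 (adjusted p = 2.8e-05) and -2.28 (adjusted p = 2.2e-05). The latter probes were each above background on all WT1-high and WT1-negative arrays and on 2 of 3 WT1-intermediate arrays. The direction of Insig1 therefore depends on the probe, and its count among the genes called higher rests on the brightest. The probe sequences as the array annotation gives them are shown because the disagreement lies between them, with the 15 bases that ILMN_1245272 and ILMN_2606693 share in capitals and only the first 30 of 50 bases of ILMN_2895388 given.
ILMN_1245272: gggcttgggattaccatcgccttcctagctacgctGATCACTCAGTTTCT
ILMN_2606693: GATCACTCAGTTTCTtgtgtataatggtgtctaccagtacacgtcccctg
ILMN_2895388: ctactttggctaaaagaaaatgggttgtgc
The overlap means that the pair that fell is a partly shared measurement. ILMN_2895388 shared no run longer than 6 bases with either of them, and which transcripts each probe detects was not tested.

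**Figure D3:**
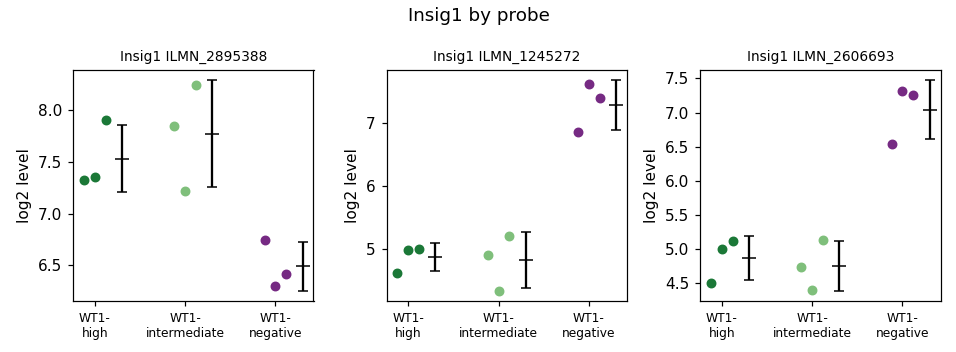
Log2 level of Insig1 by probe (1 panel each, with its own y axis) in each array of WT1-high, WT1-intermediate and WT1-negative cells, with points for arrays and the black bar for mean and SD (n = 3). WT1-negative points are the lowest of ILMN_2895388 and the highest of the other 2 probes.

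Fatty acid genes did not move as a group. Of 6 tested, 2 were called higher and 1 lower in WT1-high cells, and 1 higher and 1 lower in WT1-intermediate cells, against WT1-negative cells. Over all genes, 27.6% were called higher and 32.1% lower in WT1-high cells, and 25.9% and 32% in WT1-intermediate cells. With 6 genes, these counts do not set this arm apart from all genes. Scd1, the stearoyl-CoA desaturase that makes monounsaturated fatty acids, was the member with the largest rise in WT1-high cells. Its levels were 9.58, 9.83 and 9.65 in WT1-high, 8.47, 8.98 and 8.92 in WT1-intermediate and 7.89, 7.72 and 7.76 in WT1-negative cells, and the groups formed 3 separate steps. It rose by 1.89 (SE 0.17, 3.71-fold, adjusted p = 2.9e-06) and by 1.00 (SE 0.17, 2.00-fold, adjusted p = 0.00038). Scd2, its paralogue, did not follow, differing by -0.28 (SE 0.19, adjusted p = 0.21) in WT1-high and falling by 0.69 (SE 0.19, adjusted p = 0.0083) in WT1-intermediate cells.

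Some hepatocyte markers moved in the same direction as Scd1, which hepatocytes also express. Against WT1-negative cells 4 of 7 tested were called higher in WT1-high and 2 of 7 in WT1-intermediate cells, with mean levels per array of 6.77 to 8.59, 6.70 to 7.88 and 5.86 to 6.99. Alb, Fgb and Tat were above background on none of the 9 arrays. The part of hepatocytes in the Scd1 differences was not tested. None of 7 adipocyte markers passed the detection filter.

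Acly, which makes cytosolic acetyl-CoA from citrate, fell by 0.84 (SE 0.16, adjusted p = 0.00093) in WT1-high cells and differed by -0.38 (SE 0.16, adjusted p = 0.062) in WT1-intermediate cells. The latter was called under 4 of 18 alternatives, among them median scaling (-0.61, adjusted p = 0.012) and no background correction (-0.37, adjusted p = 0.029). Elovl6, a fatty acid elongase, rose by 0.52 (SE 0.19, adjusted p = 0.033) in WT1-high cells, a call lost with no filter (adjusted p = 0.063), without any 1 WT1-high array and without WT1-negative replicate 11 or 14 (adjusted p = 0.051 to 0.15). The desaturases Fads1 and Fads2 differed by -0.34 to 0.17 and were not called by the brightest probe, while a dimmer Fads2 probe rose by 0.87 (adjusted p = 0.0022) and by 0.86 (adjusted p = 0.0025). Fads1 was called lower in WT1-intermediate cells under median scaling (-0.52, adjusted p = 0.028) and without WT1-intermediate replicate 8 (-0.47, adjusted p = 0.041).

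Between the WT1-positive populations, 3 member genes were called in the fit without a replicate block. Scd1 was called higher in WT1-high cells, and Nr1h3 and Abcg1 were called lower. Across all genes tested, 0.962% had a call towards WT1-high and 2.87% towards WT1-intermediate cells, so 1 of 30 higher and 2 of 30 lower are read against few calls anywhere. The median log2 difference of the 30 members was 0.36, against 0.04 over all genes, and the arrays of the groups did not overlap for 14 of 30, against 20.5% of all genes. The fit without a block does not use any pairing of these arrays. With a fixed replicate block by column names, 6 members were called higher in place of 1. Calls over all probes also rose with that block, from 730 to 1656.

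Nr1h3, the liver X receptor alpha, had levels of 7.18, 6.89 and 6.62 in WT1-high, 9.11, 8.41 and 8.53 in WT1-intermediate and 6.02, 5.85 and 6.33 in WT1-negative cells. All 3 groups were separate, with WT1-intermediate the highest. WT1-high minus WT1-intermediate was -1.78 (SE 0.22, 3.45-fold, adjusted p = 0.0016). Against WT1-negative cells it rose by 0.83 (SE 0.22, adjusted p = 0.007) in WT1-high and by 2.61 (SE 0.22, 6.13-fold, adjusted p = 2.5e-06) in WT1-intermediate cells. A dimmer Nr1h3 probe, above background on no WT1-negative array, gave -0.91 (adjusted p = 0.052) between the WT1-positive groups.

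Abcg1, a sterol exporter and known liver X receptor target, had levels of 4.91, 4.90 and 4.81 in WT1-high, 6.51, 5.90 and 5.90 in WT1-intermediate and 5.45, 5.54 and 5.36 in WT1-negative cells. WT1-intermediate was again the highest and here WT1-high the lowest. The difference between the WT1-positive groups was -1.23 (SE 0.18, 2.34-fold, adjusted p = 0.004). Its deposited intensities in WT1-high replicates 1, 8 and 29 were 98.25, 117.7 and 97.12, against median negative controls of 82.68, 92.57 and 85.08. Its WT1-high level thus lies near the background, and without background correction the difference was -0.42 (adjusted p = 0.033). Against WT1-negative cells Abcg1 rose by 0.65 (SE 0.18, adjusted p = 0.0083) in WT1-intermediate cells and fell by 0.58 (SE 0.18, adjusted p = 0.016) in WT1-high cells, the latter call being lost without background correction (-0.16, adjusted p = 0.091), under cyclic loess (-0.41, adjusted p = 0.058), with an offset of 50 (-0.30, adjusted p = 0.051) and without WT1-negative replicate 11 (-0.52, adjusted p = 0.053).

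Macrophage markers moved with Nr1h3 and Abcg1 between the WT1-positive groups. All 15 tested had lower values in WT1-high cells, 9 of them called, with a median of -1.78, and the mean level of the list was 7.61 to 8.03 in WT1-high and 9.24 to 9.88 in WT1-intermediate arrays. The level of the list in WT1-negative arrays, which are of culture origin, was 10.10 to 10.24. Clec4f, a marker of resident liver macrophages, differed by -1.34 (adjusted p = 0.056) between the WT1-positive groups and was above background on no WT1-negative array, and Cd5l was not above background on any array. Endothelial markers were called lower in WT1-high cells for 4 of 10. The part of these cells in the result was not tested.

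Scd1 had a WT1-high minus WT1-intermediate difference of 0.89 (SE 0.17, 1.86-fold, adjusted p = 0.015). This call was lost when only the compared groups were fitted (adjusted p = 0.055), without WT1-high replicate 8 (0.83, adjusted p = 0.063) and without WT1-intermediate replicate 1 (0.73, adjusted p = 0.05). Of 7 hepatocyte markers tested, 6 had the higher mean in WT1-high cells, with a median of 0.82, and 0 were called by limma, while 2 had an unadjusted p below 0.05. Their part in this difference was not tested either.

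**Figure D4:**
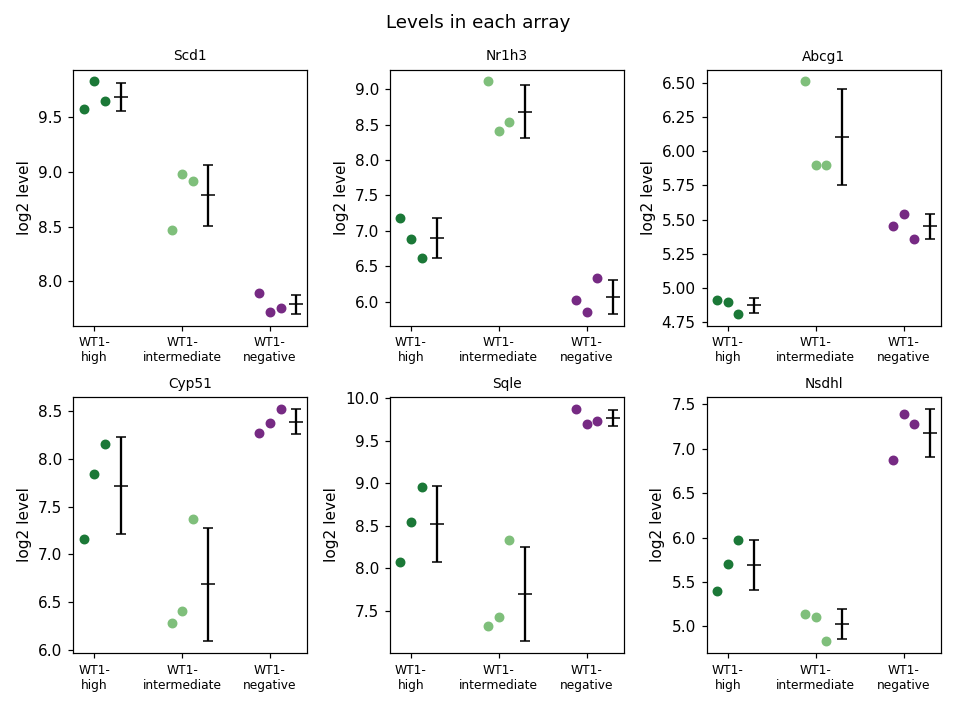
Log2 level of Scd1, Nr1h3, Abcg1, Cyp51, Sqle and Nsdhl (1 panel each, with its own y axis) in each array of the 3 groups, with points for arrays and the black bar for mean and SD (n = 3). Scd1 steps down from WT1-high to WT1-negative, Nr1h3 and Abcg1 peak in WT1-intermediate, and the sterol enzymes are highest in WT1-negative cells.

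None of the 16 mevalonate and sterol genes was called between the WT1-positive groups by limma, although 7 had an unadjusted p below 0.05 and 13 had the higher mean in WT1-high cells, with a median log2 difference of 0.40. The largest values were 1.04 for Cyp51 (SE 0.30, adjusted p = 0.092), 0.85 for Lss (SE 0.26, adjusted p = 0.1), 0.83 for Sqle (SE 0.28, adjusted p = 0.14) and 0.67 for Nsdhl (SE 0.19, adjusted p = 0.09). A second Nsdhl probe, ILMN_2725402, was called higher in WT1-high cells at 0.78 (adjusted p = 0.036). With the replicate number as a random block, which takes account of the arrays that share number 1 or 8, 5 members were called higher in place of 1. Besides Scd1 these were Cyp51 (1.07, adjusted p = 0.021), Lss (0.82, adjusted p = 0.032), Sqle (0.86, adjusted p = 0.037) and Srebf1 (0.51, adjusted p = 0.041). In a fixed replicate block by the numbers in the column names 6 were called, adding Sc4mol (0.60, adjusted p = 0.038) and Hsd17b7 (0.53, adjusted p = 0.046) to Cyp51, Lss, Sqle and Scd1. Without WT1-intermediate replicate 30, whose Cyp51 and Sqle levels were the highest of its group, Cyp51 (1.39, adjusted p = 0.016) and Sqle (1.15, adjusted p = 0.023) were called without a block, and without WT1-high replicate 1 Cyp51 was (1.32, adjusted p = 0.045).

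Genes of the same pathways outside the list showed a like balance against WT1-negative cells. Of 30 such genes 27 were tested, with 7 called higher and 12 lower in WT1-high cells and 3 higher and 13 lower in WT1-intermediate cells. Among all genes tested, 27.6% were called higher and 32.1% lower in WT1-high cells, and 25.9% higher and 32% lower in WT1-intermediate cells. Tmem97, a sterol-regulated endoplasmic reticulum protein that binds NPC1, fell most, with differences of -2.66 (SE 0.21, 6.31-fold, adjusted p = 1.3e-06) and -2.60 (SE 0.21, adjusted p = 1.9e-06). Lpin1, a phosphatidate phosphatase, fell by 1.94 in WT1-high cells (adjusted p = 1.9e-05), while the direction of Npc1, which exports cholesterol from lysosomes, depended on the probe. In WT1-intermediate cells its brightest probe gave -2.11 (adjusted p = 6.4e-06) and the dimmer ILMN_1250418 gave 1.64 (adjusted p = 6.2e-06), and in WT1-high cells they gave -1.62 (adjusted p = 4e-05) and 1.25 (adjusted p = 4e-05). Npc2, the partner of NPC1, rose by 1.25 (adjusted p = 0.00047) and by 1.51 (adjusted p = 0.00013), and Me1, malic enzyme, a source of NADPH for lipid synthesis, by 1.32 (adjusted p = 0.00062) and by 1.00 (adjusted p = 0.0039). Between the WT1-positive groups 1 of the 27 was called, Cyp27a1, the oxysterol-forming sterol hydroxylase, which fell by 0.87 in WT1-high cells (SE 0.19, adjusted p = 0.029).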

How the data were processed

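Total RNA from 9 sorted aHSC samples was hybridised to Illumina MouseWG-6 v2.0 BeadChips, 1 array per sample. The authors exported unnormalised BeadStudio probe profiles, and the deposited values are linear-scale intensities of each probe with a deposited detection p-value. Probe placement on a genome build was not given in the sources used here.

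In R 4.3.3 with limma 3.58.1, intensities were background corrected on the 936 negative control probes, quantile normalised and log2 transformed with an offset of 16 (neqc). Of 45281 probes, the 20573 whose detection p lay under 0.05 in 3 or more arrays entered a linear model over all 9 arrays with moderated, two-sided tests and Benjamini-Hochberg adjustment over all probes. A gene is given by its tested probe with the highest mean level. Full values are given for the 5 largest called rises and falls per comparison. The members and gene lists were chosen with earlier results of these data known. The number of arrays limits the precision. For WT1-negative samples nothing in the labels says that they came from separate animals, so p-values measure the spread between samples. The study's methods describe the replicates of its culture work in general as independent cell isolations. The scripts were tested on simulated data.

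Per the study, WT1-high and WT1-intermediate cells came from 3 animals. Deviations from the group means correlated at 0.35 (numbers 1), 0.34 (numbers 8) and 0.47 (29 with 30), and at -0.39 to 0.03 for the other 6 pairs. Such deviations cancel within each group, so higher values in some pairs push the others down, and this contrast cannot establish the pairing. The pairing rests on the shared numbers, for 29 with 30 on the column name and not the labels. A single intensity column of the in vivo samples carried another number than its label and was linked through the deposited joined table, where its values are identical to those of the labelled sample. Alternatives changed background correction, normalization, offset, filter, samples fitted, array weights, replicate block, probe choice and each array in turn. RefSeq promoters were searched for motifs by letter.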

Additional observations from a re-analysis of the deposited data

Results flagged for a closer look

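The gap from WT1-negative cells differed between WT1-high and WT1-intermediate cells for 3 members, by the test of that difference itself in the fit without a replicate block. The differences on the log2 scale were 0.89 for Scd1, -1.78 for Nr1h3 and -1.23 for Abcg1. For Nr1h3 and Abcg1 the adjusted p stayed below 0.05 under all 20 alternative settings run for them, and for Scd1 under 17 of 20. Higher in WT1-high cells were 5 members with the random replicate block and 6 with the fixed block by column names, in place of 1.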

How the results depend on the processing

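The counts of members called against WT1-negative cells stayed within 1.5 times of those reported under every alternative run. Leaving out 1 array gave 5 to 7 higher and 10 to 16 lower for WT1-high cells, and 5 to 6 higher and 15 to 16 lower for WT1-intermediate cells. Leaving out WT1-high replicate 29 moved the median of WT1-high against WT1-negative most, within a range of -0.57 to -0.30. Medians also moved with no background correction (0.18 for WT1-high against WT1-intermediate, -0.16 for WT1-high and -0.33 for WT1-intermediate against WT1-negative), with an offset of 50 (-0.26 and -0.37 against WT1-negative) and, for WT1-intermediate against WT1-negative, with no filter (-0.36), detection on all 9 arrays (-0.69) and all tested probes (-0.69). The higher offset and the missing correction shrink differences of dim probes by construction. The cause of the other shifts was not tested.

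Between the WT1-positive groups, the count of 1 member called higher became 3 with median scaling, 0 with the compared groups alone, 5 with a random replicate block, 3 with a fixed replicate block by the labels' numbers, 6 with a fixed replicate block by column names and 2 with all tested probes, and ranged from 0 to 3 when 1 array was left out. It was 0 when WT1-high replicate 8 or WT1-intermediate replicate 1 was dropped, 2 when WT1-high replicate 1 was, and 3 when WT1-intermediate replicate 30 was. The replicate block ended no call among the members. Median scaling moved the median of all probes for WT1-intermediate against WT1-negative from -0.13 to -0.01.

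With each gene followed by its brightest probe, changes of sign were seen only in genes not called in either setting, while Insig1 changed sign with the probe chosen. For WT1-high against WT1-intermediate, median scaling gave -0.22 for Tm7sf2, 0.09 for Ebp, -0.19 for Sc5d and 0.11 for Srebf2, and leaving out 1 array gave -0.31 to 0.10 for Mvd, -0.31 to 0.14 for Srebf2 and -0.08 to 0.24 for Pmvk. For WT1-high against WT1-negative, Ebp was -0.10 with median scaling and -0.02 with array weights, and without 1 array Ebp was -0.08 to 0.09 and Fads1 -0.06 to 0.13. For WT1-intermediate against WT1-negative, cyclic loess gave 0.16 for Sc5d and 0.14 for Srebf1, and median scaling gave -0.19 for Ebp, 0.32 for Sc5d, -0.29 for Insig2, 0.23 for Srebf1 and -0.05 for Elovl6. Insig2 was -0.03 there with array weights and -0.03 with the random replicate block, and without 1 array Insig2 was -0.08 to 0.07, Sc5d -0.12 to 0.01 and Elovl6 -0.12 to 0.21. Probes near the background, such as those of Mvk, Idi1, Tm7sf2 and Abcg1, carry differences that a background setting can shrink.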
